A study of Homo sapiens with 6 samples.

Results

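The genes described here are 9 that govern how cells dispose of mitochondria or change their shape: the mitophagy receptors BNIP3, BNIP3L and FUNDC1, the mitophagy kinase PINK1, the fusion genes MFN1, MFN2 and OPA1, and the fission genes DNM1L and MTFP1. They were taken by symbol from 38557 genes listed in the count files, and all 9 were found with enough counts for a test. The set was selected partly on the fitted difference of BNIP3 between media, already known from these libraries, so the BNIP3 values are a description without a test. The others were taken for their roles, with earlier results of these data known. RNA sequencing was done on 6 cultures of cardiomyocytes derived from the unmodified human iPSC line WTC11, an established line. One group of 3 cultures was grown in the medium RPMI plus B27 (a supplement without serum) and the other group of 3 in DMEM plus fatty acids. The labels number the cultures of each medium 1 to 3 as biological replicates but do not state what the media contained or how long the cells were in them. All cultures share 1 cell line, so the p-values measure only the spread between these cultures.

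Mitochondria are kept in balance by fusion, fission and selective removal. The mitophagy receptors BNIP3, BNIP3L and FUNDC1 sit in the outer membrane and bind ATG8-family proteins on the growing autophagosome directly. PINK1, in contrast, is a kinase that builds up on damaged mitochondria and marks them for removal by phosphorylating ubiquitin. Mitofusins join outer membranes, OPA1 joins inner membranes and shapes cristae, and DNM1L (also called DRP1) constricts the organelle from outside. In heart muscle, where mitochondria fill much of the cell, BNIP3 is known as a gene induced by hypoxia-inducible factor (HIF) under low oxygen.

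The libraries held 23232324 to 31035389 gene counts. Values are CPM, counts put on one library size by TMM factors. Log2 fold changes are positive where DMEM plus fatty acids was higher, and a gene was called at an adjusted p under 0.05 (edgeR quasi-likelihood test, Benjamini-Hochberg over all 16107 genes tested). By this rule 219 genes, or 1.36% of those tested, were called between media, and 770 genes (4.78%) were called when the replicate number was fitted as a block. Libraries with the same number deviated together from the mean of their medium, so the block is given beside the results whose call it changes. The 12 cardiomyocyte markers summed to 30390 to 37618 CPM in RPMI plus B27 and to 24401 to 34202 CPM in DMEM plus fatty acids, with 8 of 12 estimates negative. None was called by edgeR without the block, and 3 had an unadjusted p under 0.05, against 17.7% of all tested genes. MYH7 and ACTN2 were called lower with the block, against 3.42% of all tested genes. MYH6 went the other way (0.86 ± 0.27, adjusted p 0.166), without overlap of the media, and was not called with the block (adjusted p 0.0797). DESeq2, an alternative test that called 1212 of the 16107 genes, called MYH6 higher (adjusted p 0.0179). It also called MYH7 and ACTN2 lower (adjusted p 0.0125 and 0.021).

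Markers of other cell types were examined in the same way. Fibroblast and stromal markers summed to 4341 to 8415 CPM in RPMI plus B27 and to 758.3 to 1959 CPM in DMEM plus fatty acids. Of the 11 tested, 6 were called lower, against 1.07% of all tested genes, and 8 with the block, against 3.42%. Each of these 6 calls was kept in at most 2 of the 6 fits with 1 library fewer, and all 6 kept their sign in every alternative in which they were tested. Smooth muscle markers summed to 1572 to 1979 CPM against 315.9 to 1147 CPM, with 6 of 6 estimates negative and 1 called (3 with the block). Epicardial markers summed to 1357 to 1643 CPM against 626.1 to 704.5 CPM, with 5 of 5 tested estimates negative and 1 called (3 with the block). KRT8, the 1 called, made up most of each sum, at 1065 to 1480 CPM against 538.4 to 661.7 CPM. KRT19 averaged 179.5 against 66.9 CPM, and TBX18 averaged 4.98 against 1.10 CPM. WT1, UPK3B, MSLN, TCF21 and ALDH1A2 averaged 0.74 CPM or less in each medium. Among endothelial markers, PECAM1, CDH5 and VWF were at or near 0, whereas KDR had 27.5, 143.0 and 238.9 CPM in RPMI plus B27 and 114.5, 399.6 and 463.2 CPM in DMEM plus fatty acids. Its log2 fold change was 1.26 ± 0.76 (adjusted p 0.434), and it was called higher with the block (1.49, adjusted p 0.0245). The other 2 tested had negative estimates at low levels, and neither was called by edgeR with or without the block. TEK averaged 0.78 against 0.18 CPM without overlap of the media (-2.13 ± 0.51, adjusted p 0.0960). DESeq2 called TEK lower (-2.16 ± 0.74, adjusted p 0.0479). TIE1 averaged 0.76 against 0.39 CPM (-0.97 ± 0.53, adjusted p 0.389). The part of these marker levels in the results below was not tested. Fewer cells of a type and less RNA per cell cannot be told apart in such bulk libraries.

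Promoter sequences of a few members are shown first. The 250 bases before the annotated start of BNIP3, of MTFP1 and of FUNDC1 were read from RefSeq (build GRCh38.p14). They lie at chr10:131981924-131982173 on the minus strand, chr22:30425518-30425767 on the plus strand and chrX:44542860-44543109 on the minus strand. BNIP3 is shown because its RNA differed most, and MTFP1 and FUNDC1, which did not pass the test, because their estimates had opposite signs. Each is written 5′ to 3′ on the gene's strand, and capitals mark every ACGTG or GCGTG, the core letters that HIF prefers, on either strand.
BNIP3: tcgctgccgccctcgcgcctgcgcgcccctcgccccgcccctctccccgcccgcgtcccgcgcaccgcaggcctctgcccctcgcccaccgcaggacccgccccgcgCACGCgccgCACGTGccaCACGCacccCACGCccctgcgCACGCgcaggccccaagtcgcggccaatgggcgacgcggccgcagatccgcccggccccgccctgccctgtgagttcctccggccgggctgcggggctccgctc
MTFP1: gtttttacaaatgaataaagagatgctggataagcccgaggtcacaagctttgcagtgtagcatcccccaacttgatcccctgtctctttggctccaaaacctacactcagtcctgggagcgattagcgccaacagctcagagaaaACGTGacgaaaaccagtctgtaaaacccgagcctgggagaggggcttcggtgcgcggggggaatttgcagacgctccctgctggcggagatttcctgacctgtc
FUNDC1: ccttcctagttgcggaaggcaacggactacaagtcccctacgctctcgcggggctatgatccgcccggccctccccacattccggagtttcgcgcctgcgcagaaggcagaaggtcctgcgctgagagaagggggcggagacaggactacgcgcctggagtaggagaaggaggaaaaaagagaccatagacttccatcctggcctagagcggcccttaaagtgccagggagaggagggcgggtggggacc
The BNIP3 stretch held 6 matches, 2 of ACGTG and 4 of GCGTG. The 2 ACGTG matches overlap, being the same letters read on opposite strands, and all 6 lie 143 to 100 bases before the start. MTFP1 had 1 match, FUNDC1 had none, and among the other members in the RefSeq table OPA1 had 1 and MFN1, MFN2 and DNM1L had none. BNIP3L and PINK1 have no entry there. Of 35116 promoters of this length, 43.2% held at least 1 match and 0.646% held 6 or more. The BNIP3 stretch is 81.6% G and C, against 53.2% for MTFP1 and 62.4% for FUNDC1. These matches are descriptions of the letters in the window.

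BNIP3, whose protein is a receptor that links mitochondria to the autophagosome, had 275.6, 175.9 and 137.5 CPM in RPMI plus B27 replicates 1 to 3. In DMEM plus fatty acids it had 66.7, 39.1 and 37.7 CPM. The media did not overlap, and replicate 1 was the highest culture in each medium. The mean was 196.3 ± 71.3 CPM (SD, n = 3) against 47.8 ± 16.3 CPM (SD, n = 3), a log2 fold change of -2.04 ± 0.32 (SE), or 4.11-fold lower in DMEM plus fatty acids. Within replicate numbers 1, 2 and 3 the log2 differences were -2.05, -2.17 and -1.86. The SD was 36.3% of the mean for RPMI plus B27 and 34.2% for DMEM plus fatty acids, and the SE of the fold change was 0.11 with the block. Leaving out each library in turn gave log2 fold changes from -2.36 to -1.72. Summed fibroblast and stromal markers were highest in replicate 1 of RPMI plus B27 (8415 CPM) and lowest in replicate 1 of DMEM plus fatty acids (758.3 CPM). Smooth muscle markers were highest in replicate 1 of RPMI plus B27 (1979 CPM) and replicate 2 of DMEM plus fatty acids (1147 CPM). Epicardial markers, of which KRT8 was the main part, were highest in replicates 3 (1643 CPM) and 2 (704.5 CPM) of these media. The part of these markers in the BNIP3 values was not tested.

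BNIP3L (also called NIX), the close relative of BNIP3 that clears mitochondria from maturing red blood cells, had 145.3, 135.0 and 127.2 CPM in RPMI plus B27 replicates 1 to 3. In DMEM plus fatty acids the values were 105.4, 93.3 and 84.6 CPM. Every DMEM plus fatty acids culture was below every RPMI plus B27 culture. The log2 fold change was -0.53 ± 0.12 (SE), with a 95% interval of -0.81 to -0.24. It missed the threshold without the block (adjusted p 0.0947) and passed it with the block (-0.53 ± 0.10, adjusted p 0.0395). DESeq2, which called 1212 of all 16107 genes tested, also called BNIP3L (adjusted p 0.0125). The adjusted p of BNIP3L ran from 0.0125 to 0.272 over 11 alternatives. Counts of BNIP3 were 1.90, 1.30 and 1.08 times those of BNIP3L in RPMI plus B27 and 0.632, 0.419 and 0.446 times in DMEM plus fatty acids, so the order of the paralogs by counts was opposite in the 2 media in all 6 libraries.

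FUNDC1, another outer-membrane receptor, was the least counted of the receptors. It had 15.03, 19.7 and 16.3 CPM in RPMI plus B27 and 21.0, 22.5 and 19.7 CPM in DMEM plus fatty acids. The lowest value in DMEM plus fatty acids lay just under the highest in RPMI plus B27, so the media overlapped. Its log2 fold change was 0.31 ± 0.16 (SE, adjusted p 0.357), with a 95% interval of -0.06 to 0.68. The receptors thus did not share a direction of their estimates: BNIP3 and BNIP3L were below 0 and FUNDC1 was above it.

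PINK1 had 47.1, 56.4 and 61.3 CPM in RPMI plus B27 and 65.7, 68.1 and 74.9 CPM in DMEM plus fatty acids. Its media did not overlap, with a log2 fold change of 0.34 ± 0.13 (SE), which missed the threshold without the block (adjusted p 0.244) and with it (adjusted p 0.112). On the opposite strand, PINK1-AS overlaps 58.1% of the exon bases of the coding PINK1 transcripts in GENCODE release 29. It was counted at 3.62 to 6.93 CPM in RPMI plus B27 and 4.82 to 5.57 CPM in DMEM plus fatty acids. The strand setting of the count is not given in the sources used here, so reads of PINK1 and PINK1-AS cannot be told apart with certainty.

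**Figure D1:**
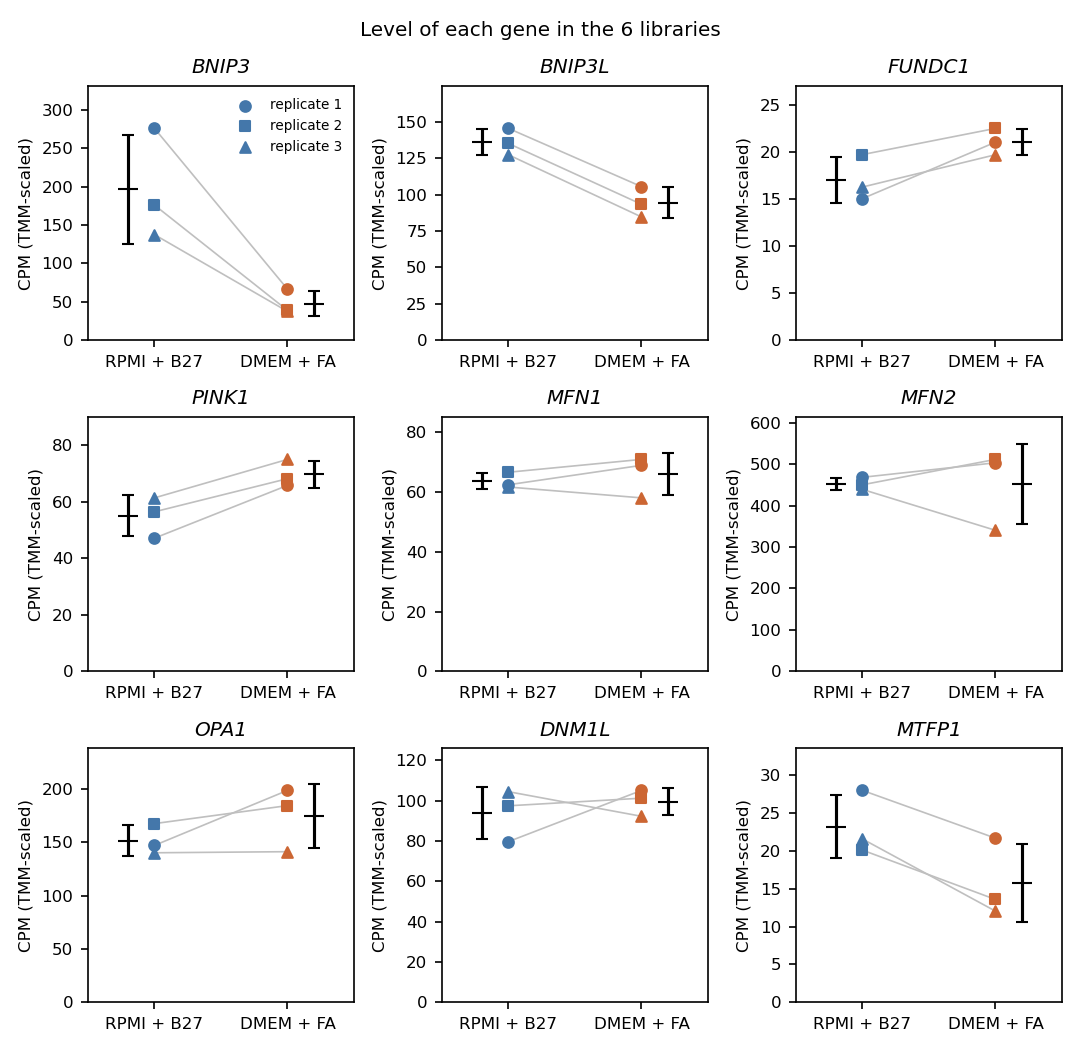
TMM-scaled CPM of each of the 9 genes, on axes starting at 0, in the RPMI plus B27 (blue) and DMEM plus fatty acids (orange) libraries. Marker shapes give the replicate number, grey lines join equal numbers, and black bars are the mean ± SD of 3 libraries. BNIP3 lay at 137.5 to 275.6 CPM in the RPMI plus B27 libraries and at 37.7 to 66.7 CPM in the others, while MFN1, MFN2, OPA1 and DNM1L overlapped between media.

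The fusion genes overlapped between media, and none passed the test. MFN2, the more abundant mitofusin, which also tethers mitochondria to the endoplasmic reticulum, had 468.0, 450.0 and 438.7 CPM in RPMI plus B27. In DMEM plus fatty acids it had 503.0, 511.1 and 340.1 CPM. Replicate 3 was the low culture there, and the other two were above all RPMI plus B27 cultures. The log2 fold change was -0.003 ± 0.18 (SE, adjusted p 0.996, 95% interval -0.42 to 0.41), and it was 0.17 without DMEM plus fatty acids replicate 3. MFN1, the other mitofusin, ran from 61.6 to 66.5 CPM in RPMI plus B27 and from 58.0 to 70.8 CPM in DMEM plus fatty acids, with a log2 fold change of 0.05 ± 0.12 (SE, adjusted p 0.855, 95% interval -0.22 to 0.33). Counts of MFN2 were 6.76 to 7.51 times those of MFN1 in RPMI plus B27 and 5.87 to 7.31 times in DMEM plus fatty acids. The log2 of this ratio, which does not depend on how libraries are scaled, was 2.83 ± 0.08 (SD, n = 3) for RPMI plus B27 and 2.76 ± 0.18 (SD, n = 3) for the fatty acid medium, with an exact two-sided permutation p of 0.7. Since 3 against 3 libraries cannot go below 0.1, this test could not have passed the threshold.

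OPA1, the inner-membrane fusion GTPase, had 147.2, 167.6 and 140.2 CPM in RPMI plus B27 and 198.7, 184.5 and 141.3 CPM in DMEM plus fatty acids. Replicates 1 and 2 of DMEM plus fatty acids were above every RPMI plus B27 culture and replicate 3 was level with the lowest. Its log2 fold change was 0.20 ± 0.16 (SE, adjusted p 0.538, 95% interval -0.16 to 0.57). OPA1, MFN2 and MFN1 each had their lowest value of DMEM plus fatty acids in replicate 3, at 0.29, 0.38 and 0.18 log2 units under the mean of that medium. Summed cardiomyocyte markers were also lowest in that library, at 24401 CPM against 30390 to 37618 CPM in the other 5, and the part of this in the fusion genes was not tested.

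DNM1L, the fission GTPase, had 79.7, 97.4 and 104.4 CPM in RPMI plus B27. In DMEM plus fatty acids it had 105.0, 101.2 and 92.2 CPM. The media overlapped, and the order of the replicate numbers was opposite in each, with a log2 fold change of 0.08 ± 0.13 (SE, adjusted p 0.784, 95% interval -0.23 to 0.40). Set against OPA1 within each library, DNM1L gave 0.541, 0.581 and 0.744 counts per OPA1 count in RPMI plus B27 replicates 1 to 3, and 0.528, 0.548 and 0.653 in those of DMEM plus fatty acids. The ratio was lower in all 3 pairs, by a mean of -0.10 ± 0.05 log2 units (SE over 3 pairs). The exact two-sided sign-flip p was 0.25, the smallest that 3 pairs allow, and the exact permutation p without pairing was 0.6, so neither could show a difference past the threshold.

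MTFP1, an inner-membrane protein that promotes fission, had 28.0, 20.1 and 21.6 CPM in RPMI plus B27 and 21.7, 13.6 and 12.0 CPM in DMEM plus fatty acids. Replicate 1 was the highest culture in each medium, as for BNIP3, and the highest DMEM plus fatty acids value overlapped the RPMI plus B27 range. The log2 fold change was -0.56 ± 0.26 (SE), with a 95% interval of -1.16 to 0.04, and it missed the threshold without the block (adjusted p 0.309) and with it (-0.59 ± 0.15, adjusted p 0.0813). Within replicate numbers 1, 2 and 3 the log2 differences were -0.37, -0.56 and -0.84, so MTFP1 was lower in all 3 pairs. In GENCODE release 29 another protein-coding gene, AC004832.3, overlaps 63.6% of its coding-transcript exon bases on the same strand, so its counts are uncertain. That symbol matched 0 rows of the count files, and how the authors' annotation treats the shared exons is not given in the sources used here.

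**Figure D2:**
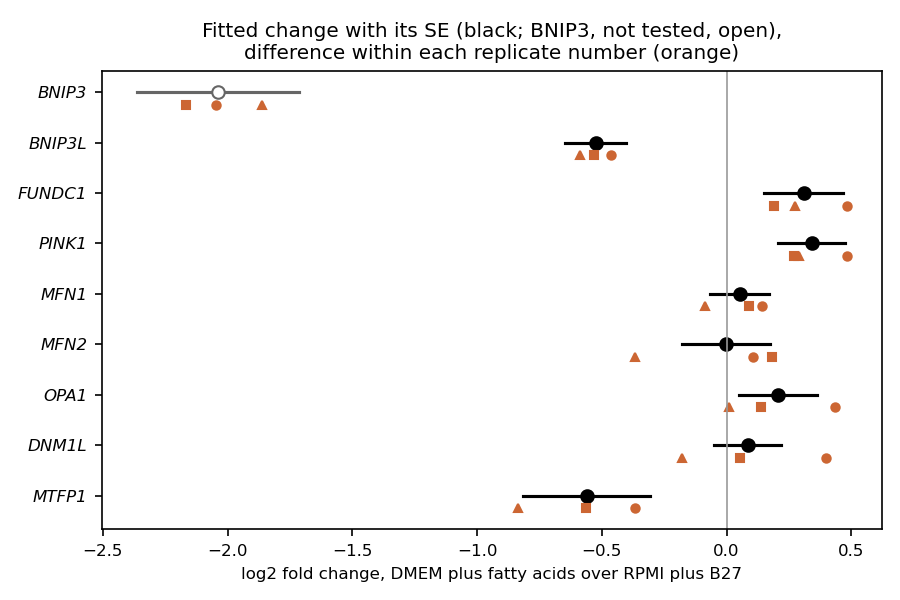
Fitted log2 fold change of each gene with its SE (black, BNIP3 open because it was not tested), and the log2 differences within replicate numbers 1 (circle), 2 (square) and 3 (triangle) in orange. BNIP3 lay at -2.04, BNIP3L and MTFP1 at -0.53 and -0.56, and the other 6 between -0.003 and 0.34.

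Of the 8 genes other than BNIP3, 0 were called without the block, against 1.36% of all tested genes. BNIP3L and PINK1, or 2 of the 8, had an unadjusted p under 0.05, against 17.7% of all tested genes (edgeR). With the block 1 of the 8 was called, against 4.78% of all tested genes. BNIP3L and PINK1 were also the 2 of these 8 whose media did not overlap, which held for 25.6% of all tested genes. The median log2 fold change of the 8 was 0.07, beside 0.01 over all tested genes. Scaling by total gene counts moved these medians to 0.17 and 0.12, and MFN2 was then at 0.10, while the other 8 genes, BNIP3 included, kept their sign.

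Per kilobase of exon in the coding transcripts, MFN2 had the highest level in RPMI plus B27 at 96.7 ± 3.16 CPM per kb (SD, n = 3), followed by BNIP3 at 68.6 ± 24.9 and BNIP3L at 34.97 ± 2.34. OPA1 (21.1 ± 1.98), PINK1 (20.7 ± 2.72), DNM1L (20.2 ± 2.74) and MTFP1 (16.6 ± 2.99) came next, then FUNDC1 (14.2 ± 2.02) and MFN1 (12.0 ± 0.50). From OPA1 down, neighbours in this order differed by less than the sum of their SDs, and MFN2 and BNIP3 differed by about that sum. MFN2 was again first in DMEM plus fatty acids, at 96.5 ± 20.6 CPM per kb. There PINK1 (26.2 ± 1.79), OPA1 (24.3 ± 4.16), BNIP3L (24.3 ± 2.69) and DNM1L (21.4 ± 1.41) followed, then FUNDC1 (17.6 ± 1.17), BNIP3 (16.7 ± 5.71), MFN1 (12.4 ± 1.30) and MTFP1 (11.3 ± 3.69). Here only MFN2 from PINK1 and DNM1L from FUNDC1 differed, among neighbours, by more than the sum of their SDs. BNIP3 thus went from rank 2 to rank 7 of the 9 genes. When every annotated exon was used for length, it went from rank 2 to rank 9, so its rank in DMEM plus fatty acids depends on the gene model.

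By position, the genes are spread over 7 chromosomes, of which MFN2 and PINK1 share chromosome 1 and MFN1 and OPA1 share chromosome 3. BNIP3 lies at chr10:131967684-131981923 and MTFP1 at chr22:30425768-30429054 in GRCh38.p14.

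The genes whose profile over the 6 libraries was most like that of BNIP3 were LDHA, FKBP14, ARHGAP45, SLC2A1 and FOSL2. Likeness was the root-mean-square difference of log2 CPM after each gene was centred on its own mean, over 10027 other genes that averaged 10 CPM or more, and it includes the difference between media by construction. It was 0.17 for LDHA (lactate dehydrogenase A), 0.18 for FKBP14 (a peptidyl-prolyl isomerase of the endoplasmic reticulum), 0.22 for ARHGAP45 (a GTPase-activating protein), 0.23 for SLC2A1 (the glucose transporter GLUT1) and 0.23 for FOSL2 (an AP-1 transcription factor). LDHA had 1969, 1070 and 1116 CPM in RPMI plus B27 and 394.2, 228.7 and 242.2 CPM in DMEM plus fatty acids. Like BNIP3, each of these 5 genes was highest in replicate 1 of each medium, which follows in part from picking them for likeness over the same libraries.

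**Figure D3:**
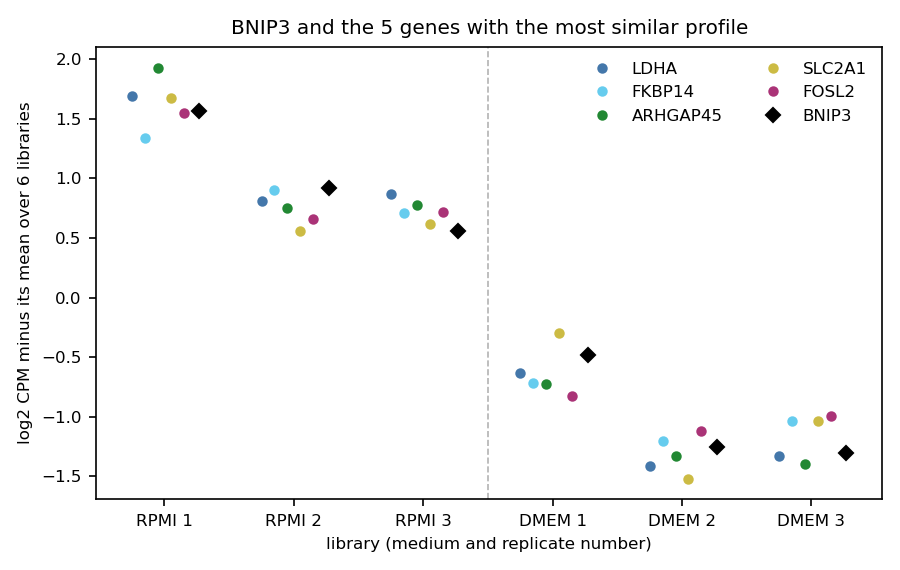
Centred log2 CPM of BNIP3 (black diamonds) and of the 5 genes closest to it in each of the 6 libraries, with RPMI plus B27 left and DMEM plus fatty acids right of the dashed line. All 6 genes were highest in replicate 1 of each medium, and all were above their mean in RPMI plus B27 and below it in DMEM plus fatty acids. The 5 genes were picked for likeness over these libraries, which favours such shared patterns.

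Other targets of HIF had mostly negative estimates, and 1 passed the test. Of 16 listed by role, 15 were tested, 14 had a negative log2 fold change and the median was -1.08, beside 0.01 over all tested genes. P4HA2, a collagen prolyl hydroxylase subunit, was the 1 called (-1.08 ± 0.19, adjusted p 0.0480), against 1.07% of all tested genes called lower. An unadjusted p under 0.05 (edgeR) was found for 12 of the 15 (80%), against 17.7% of all tested genes. The media did not overlap for 9 (60%), beside 25.6% of all tested genes. P4HA2 fell from 62.0 to 83.6 CPM in the RPMI plus B27 libraries to 29.6 to 43.9 CPM. Its call was lost whichever of the 6 libraries was left out (adjusted p up to 0.168), and under scaling by total counts. With the block 6 were called, all lower: P4HA1, P4HA2, SLC2A1, the oxygen-sensing hydroxylases EGLN1 and EGLN3, and the histone demethylase KDM3A, against 3.42% of all tested genes. P4HA1 had -1.52 ± 0.29 (adjusted p 0.0593 without the block and 0.00642 with it) and SLC2A1 had -1.91 ± 0.41 (0.0786 and 0.00613). VEGFA (-0.30 ± 0.46) and ADM (0.09 ± 0.29), secreted factors on the same list, had adjusted p values of 0.777 and 0.901. Without RPMI plus B27 replicate 1 the median of the list was -0.76, with 13 of 15 negative. Earlier results of these data had already shown hypoxia-response genes to be lower, so this list is not independent evidence.

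The wider machinery was read from lists of other genes. In 7 lists of 57 genes, taken for their roles in mitophagy, fusion, fission, transport and cristae, 0 genes were called by edgeR with or without the block, and 7 (12.3%) had an unadjusted p under 0.05, against 17.7% of all tested genes. DESeq2 called 1 of them, against 1212 of all 16107 genes tested. The media did not overlap for 15 (26.3%), beside 25.6% of all tested genes. Their median log2 fold change was 0.08.

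Among the 5 other mitophagy receptors, NLRX1, a mitochondrial protein of the NOD-like family, had 27.2, 28.3 and 24.2 CPM in RPMI plus B27 and 34.4, 42.4 and 39.4 CPM in DMEM plus fatty acids. The media did not overlap, and the log2 fold change was 0.54 ± 0.14 (adjusted p 0.109). It was the gene DESeq2 called (adjusted p 0.0207). FKBP8 (-0.11 ± 0.11) and PHB2 (0.09 ± 0.11), an outer-membrane and an inner-membrane receptor, had adjusted p values of 0.651 and 0.684.

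Other genes of the PINK1 axis, 8 in all, had a median of 0.12. The smallest p values were those of MUL1 (0.37 ± 0.15), a mitochondrial ubiquitin and SUMO ligase, of the deubiquitinase USP15 (0.22 ± 0.11) and of TOMM20 (-0.23 ± 0.14), an import receptor of the outer membrane, with adjusted p values of 0.253, 0.350 and 0.451.

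The autophagy adaptors and ATG8 proteins had a median of -0.07 over 11 genes. MAP1LC3B, the most studied ATG8 protein, had 96.1, 143.8 and 120.0 CPM in RPMI plus B27 and 198.6, 170.3 and 152.4 CPM in DMEM plus fatty acids (0.54 ± 0.18, adjusted p 0.184). The adaptor SQSTM1 (p62) had 0.30 ± 0.13 (adjusted p 0.299) and the adaptor OPTN had -0.26 ± 0.12 (adjusted p 0.338).

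Fusion partners and proteases that process OPA1 had a median of 0.14 over 10 genes. The smallest p values were those of OPA3 (0.36 ± 0.18), MIGA1 (mitoguardin 1, -0.29 ± 0.15) and the OPA1-cleaving protease OMA1 (0.35 ± 0.18), with adjusted p values of 0.349, 0.354 and 0.360. Fission adaptors and regulators had a median of 0.03 over 12 genes. MTFR1 (mitochondrial fission regulator 1) had 16.4, 14.4 and 14.1 CPM in RPMI plus B27 and 30.1, 21.6 and 19.4 CPM in DMEM plus fatty acids, a log2 fold change of 0.66 ± 0.20 (adjusted p 0.157). Its relative MTFR1L (0.30 ± 0.12) and AKAP1 (0.45 ± 0.19), which anchors protein kinase A at the outer membrane, had adjusted p values of 0.251 and 0.273. The DNM1L receptors FIS1, MFF, MIEF1 and MIEF2 ran from -0.21 to 0.15.

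Mitochondrial transport genes (RHOT1, RHOT2, TRAK1 and TRAK2) had a median of -0.05 over 4 genes, with 3 negative under TMM scaling and 0 under scaling by total counts. RHOT2 (0.28 ± 0.18, adjusted p 0.447) had the smallest p. Genes of the MICOS complex, which forms cristae junctions, had a median of 0.27, with 6 of 7 positive. IMMT, its core subunit, had 0.27 ± 0.11 (adjusted p 0.268), CHCHD3 had 0.30 ± 0.14 (0.306) and CHCHD6 was the exception at -0.50 ± 0.23 (0.323).

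Genes used as a gauge of mitochondrial content, such as CS (citrate synthase) and TFAM (which packages mitochondrial DNA), had a median of 0.25, with 11 of 12 positive, 0 called by edgeR and 3 at an unadjusted p under 0.05, where 17.7% of all tested genes were. NDUFS1 (0.44 ± 0.16), TFAM (0.44 ± 0.16) and CS (0.34 ± 0.13) had adjusted p values of 0.211 to 0.227. Their sum ran from 4084 to 4565 CPM in RPMI plus B27 and from 4624 to 5535 CPM in DMEM plus fatty acids.

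**Figure D4:**
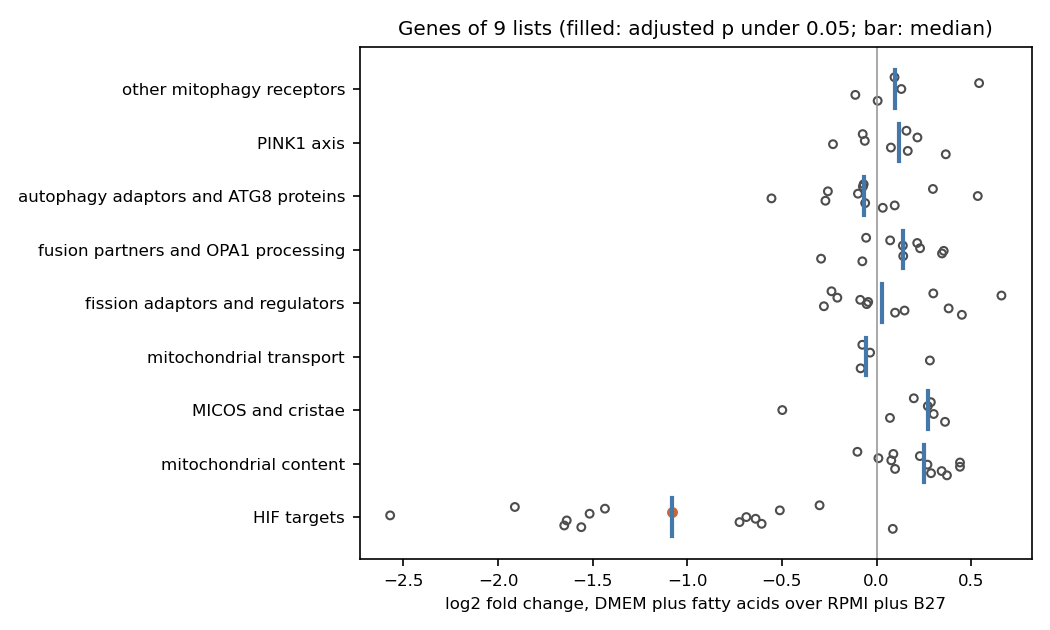
Log2 fold change of each tested gene in the 7 role lists, the mitochondrial content list and the HIF target list, with the list median as a blue bar and called genes filled. The medians of the first 8 lists lie between -0.07 and 0.27, and that of the HIF targets lies at -1.08, where P4HA2 is the called gene.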

How the data were processed

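Total RNA of 6 cultures was extracted on columns with DNase digestion and made into stranded mRNA libraries, per the labels' protocols. The deposited files, 1 for each library, hold unnormalized counts by gene symbol, not pooled over replicates. STAR, HTSeq and hg38 are named in the submitters' processing notes. Versions, annotation and strand setting are not given in the sources used here. Gene rows held 84.4% to 87.2% of each file's total, and the summary rows (no feature 5.44% to 7.57%, ambiguous 3.90% to 4.15%, not unique 3.05% to 4.10%) were left out of library sizes and tests. A count of 0 allows up to 3 counts, or 0.0967 to 0.129 CPM, for counting error only.

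Groups and replicate numbers came from the titles. The test was that of edgeR 4.0.16, run in R 4.3.3 on the deposited counts (filterByExpr with minimum count 10 and minimum total 15, TMM, quasi-likelihood test of medium over all 6 libraries, no covariates), which left 16107 genes. SEs are those implied by the F statistic. log2 CPM used a prior count of 2. DESeq2 1.42.0, other filters, scaling by total counts, a replicate block and leaving out each library were alternatives. Deviations of same-numbered libraries from their medium's mean correlated at 0.313, 0.428 and 0.365 across genes and those of other numbers at -0.24 to -0.14. Deviations within a medium cancel by construction, so the negative values follow from the positive ones and are not separate evidence. On the positive values, the numbers were taken to pair the libraries (this pairing comes from the data, since the labels leave its origin unstated). Every pair of libraries differed by more than sampling noise (chi-square per degree of freedom at least 29.4). The test was checked on simulated counts.

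Exon lengths and overlaps came from GENCODE release 29 and positions from RefSeq. The members and lists were chosen with earlier results of these data known. The text names all 9 members, in each role list the called genes and up to 3 with the smallest p, and the 5 genes most like BNIP3. VEGFA, ADM, FIS1, MFF, MIEF1, MIEF2, RHOT1, TRAK1, TRAK2 and the HIF targets called with the block were named after their values were seen. So were MYH6, MYH7, ACTN2, KDR, TEK, TIE1, PECAM1, CDH5, VWF, KRT8, KRT19, TBX18, WT1, UPK3B, MSLN, TCF21 and ALDH1A2. One gene of a role list is not reported here.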

Additional observations from a re-analysis of the deposited data

How the results depend on the processing

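The count of called genes, 219, was 770 with the replicate block, 1212 by DESeq2, 539 with no filter beyond 1 count and 119 under a filter of 10 counts in all libraries, and ran from 3 to 131 when 1 library was left out (3 without DMEM plus fatty acids replicate 3). Of the 8 genes other than BNIP3, 1 was called with the replicate block and 1 by DESeq2, BNIP3L in both (log2 fold change -0.53 in each), and 0 without any 1 library. Of the 57 genes in the 7 role lists, 1 was called by DESeq2, NLRX1. Called HIF targets numbered 6 with the replicate block, 9 by DESeq2, 4 with no filter beyond 1 count, 0 under scaling by total counts, 0 under the filter of 10 counts in all libraries, and 0 to 0 when 1 library was left out. The cause of these shifts was not tested. BNIP3 stayed between -2.36 and -1.72 over its 11 alternatives. BNIP3L, FUNDC1, PINK1, OPA1 and MTFP1 kept their sign in all 11. Estimates near 0 changed sign: MFN2 was 0.10 under scaling by total counts, 0.011 with no filter beyond 1 count and -0.10 to 0.17 when 1 library was left out. MFN1 ran from -0.00044 to 0.14 and DNM1L from -0.022 to 0.17 when 1 library was left out. The log2 ratio of MFN2 to MFN1 differed by -0.13 to 0.028 and that of DNM1L to OPA1 by -0.20 to 0.034 in those fits. Within replicate pairs these ratios differed by -0.07 and -0.10 (exact sign-flip p 0.75 and 0.25, with 0.25 the smallest that 3 pairs allow). The replicate block changed no other call among the 8 genes other than BNIP3 and the 7 role lists. With 3 libraries a medium, the estimates for MTFP1 and PINK1 did not pass the threshold under any of the 11 alternatives.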
